A study of Danio rerio with 4 samples.

Results

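The 6 genes described here encode inflammatory cytokines of the zebrafish: il1b (ENSDARG00000098700), the tumour necrosis factor genes tnfa (ENSDARG00000009511) and tnfb (ENSDARG00000013598), il6 (ENSDARG00000102318), and the interleukin 11 genes il11a (ENSDARG00000037859) and il11b (ENSDARG00000058557). They were chosen by symbol among the 25432 genes of the count tables, and all 6 were present. Single cell transcriptomes came from skin wounds of adult wild-type zebrafish (Tüpfel long fin and Ekkwill strains) at 2, 4 and 6 days post wounding (dpw) and from unwounded skin. Each of the 4 stages was 1 library made from 3 pooled fish, so no difference between stages has a replicate check and no test across stages is given. The wounds were full-thickness laser wounds collected with a 4 mm biopsy punch, whereas unwounded skin was scraped off, so that the effects of wounding and of sampling cannot be told apart.

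Interleukin 1 beta is an early alarm signal of injured and infected tissue; in mammals it is made as a precursor and cut by a caspase that inflammasomes activate. Tumour necrosis factor is a membrane-bound trimer that a metalloproteinase can shed, and it acts on neighbouring cells through 2 receptor types. Interleukin 6 and interleukin 11 belong to one family: in mammals each binds a receptor chain of its own and then the shared chain gp130, encoded by il6st, which activates JAK kinases and STAT3. Macrophages and neutrophils are the classical sources of interleukin 1 beta and tumour necrosis factor, whereas interleukin 11 is best known in mammals from stromal and epithelial cells. Zebrafish carry 2 copies each of the tumour necrosis factor and interleukin 11 genes.

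After filtering, 5802 unwounded, 7754 (2 dpw), 7315 (4 dpw) and 8314 (6 dpw) cells remained, with 43307637 to 56867519 unique molecular identifiers (UMIs, 1 per captured transcript) per library and median depths of 3979 to 4190 UMIs per cell. The 29185 cells shared 78 of 29107 distinct barcodes between libraries. Clustering gave 40 clusters, of which 27 were assigned to 13 classes by marker genes, while 13 clusters with 25% of the cells stayed unnamed and are given by number. A level is the summed UMIs of a gene per 1000000 UMIs of a class in 1 library (CPM). Values for all 4 stages run from unwounded skin through 2 and 4 dpw to 6 dpw. Ranges in brackets are 95% intervals from the counts alone (Poisson for levels, conditional binomial for ratios, Clopper-Pearson for shares). They do not cover differences between fish. Intervals of levels, ratios and UMI shares also treat each UMI as independent, so they are too narrow where many UMIs lie in 1 cell. Counting error in the text has this limit. Red blood cell-like cells, which should lack these cytokines, served as a rough measure of free RNA: they held il1b at 11.3, 21.7, 6.60 and 0 CPM in the 4 stages, tnfa at 0 in all, and il11b at 1.67 to 3.76 CPM. These il11b levels rested on only 1 or 2 UMIs per library. For tnfb the red blood cell-like level was 82.8 CPM in unwounded skin, where 13 of its 22 UMIs lay in 1 cell, and 3.96 to 26.7 CPM in the wounds. These cells were shallow (medians 972, 818, 777 and 852 UMIs). Equal CPM in a deeper class therefore does not mean equal free RNA per cell. The class was also not a clean blank. Its cluster 38 (91 cells) had 4 T or NK cell markers beside 6 red blood cell markers. At 2 dpw its 11 cells with tnfb had a median of 3558 UMIs and 3187 CPM of macrophage markers. Its cells without tnfb had 811 UMIs and 441 CPM. For il1b the marker values were 998 and 616 CPM at 2 dpw but 0 and 186 CPM at 4 dpw. A level not above that of this class thus does not show that the RNA was free.

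il1b, tnfa and tnfb were highest in the 2 dpw library, whereas il11b was highest at 6 dpw. il1b had 1679, 12266, 2792 and 936 UMIs in the 4 stages, that is 38.8, 217, 52.4 and 16.5 CPM. At 2 dpw this was 5.59-fold [5.31 to 5.88] the unwounded level, and at 6 dpw 0.425 of it. tnfa had 3.90, 25.5, 3.77 and 2.15 CPM and was 6.53-fold higher at 2 dpw, and tnfb had 52.2, 153, 50.7 and 27.7 CPM and was 2.93-fold higher. The 4 dpw levels of tnfa and tnfb thus lay near those of unwounded skin and the 6 dpw levels below them. il6 was nearly absent, with 10, 27, 5 and 0 UMIs in whole libraries. il11a was rare as well, with 15, 39, 45 and 31 UMIs, and its ratio to unwounded skin was 1.99 [1.07 to 3.88] at 2 dpw, 2.44 [1.33 to 4.71] at 4 dpw and 1.57 [0.824 to 3.14] at 6 dpw. The course of il11b differed from the others: it had 22.9, 17.8, 25.7 and 48.3 CPM, or 0.777 [0.711 to 0.849], 1.12 [1.03 to 1.22] and 2.11 [1.96 to 2.27] of the unwounded level.

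The cell composition of the libraries changed along with the levels within cells. Macrophage-like cells held 27.3% of all UMIs at 2 dpw, against 5.31% in unwounded skin. With each class kept at its unwounded level, the 2 dpw composition by itself gave il1b ratios of 4.25, tnfa ratios of 3.50 and tnfb ratios of 3.19; with the composition of unwounded skin, the 2 dpw levels gave 2.2 for il1b, 2.09 for tnfa and 1.17 for tnfb. For il11b at 6 dpw the composition by itself gave 0.934 and the levels within classes 2.25. In this calculation the 6 dpw ratio of il11b went with the levels within classes and the 2 dpw ratio of tnfb mostly with composition. Shifts among the clusters of a named class count here as levels and were not separated. The cause of either difference was not tested.

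**Figure D1:**
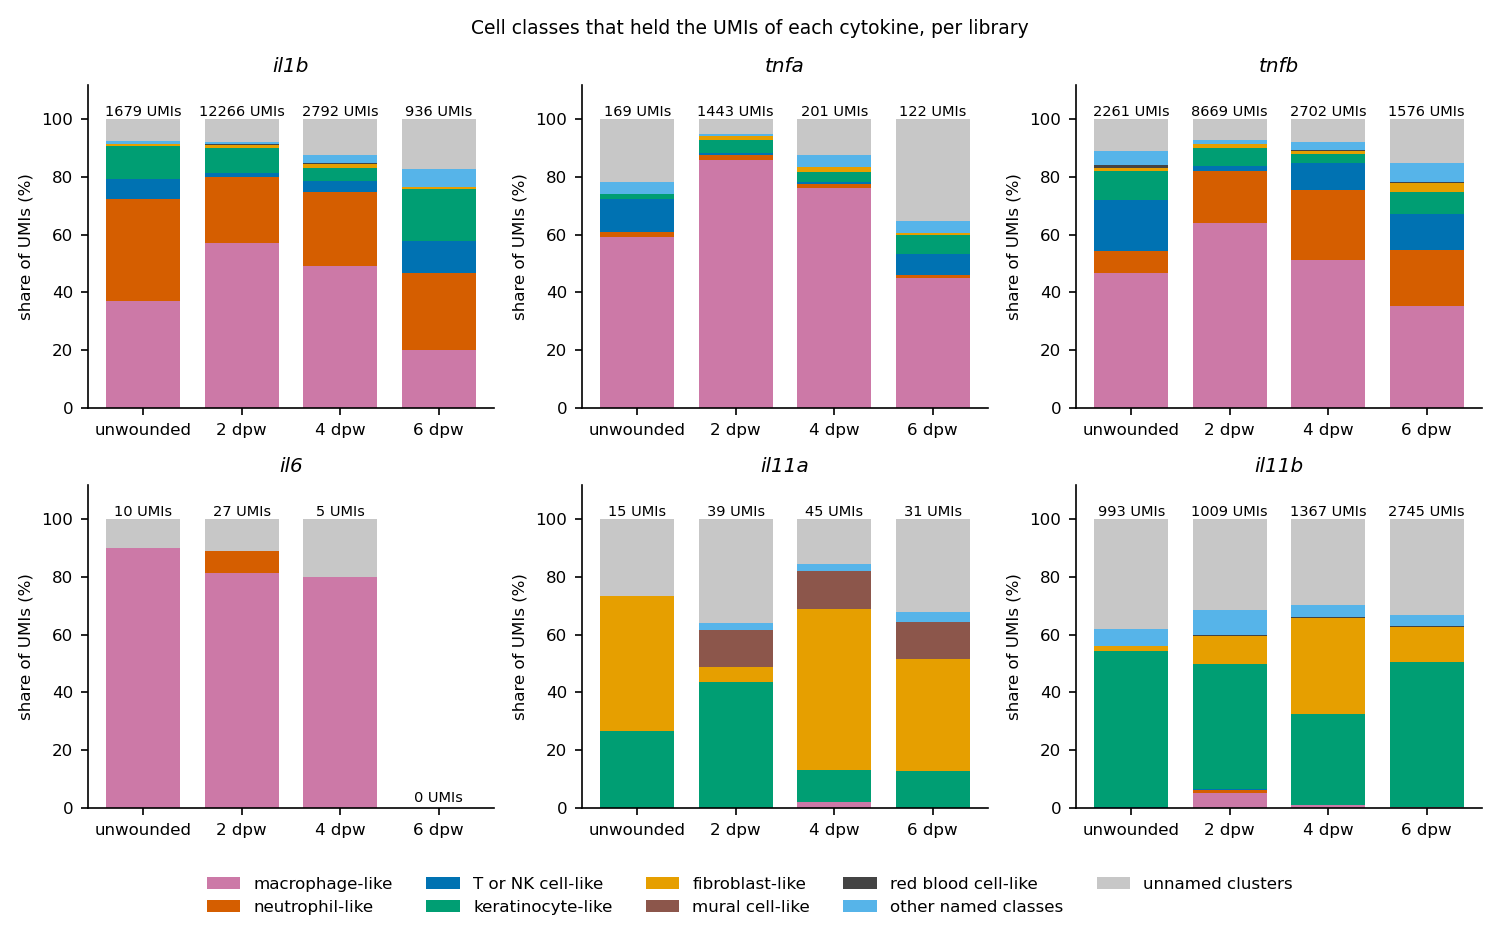
Share of the UMIs of each cytokine gene (vertical axis, percent) held by each cell class in each library (horizontal axis, unwounded and 2, 4 and 6 dpw). At 2 dpw macrophage-like and neutrophil-like cells together hold most il1b (57.0% and 23.1%). For il11b at 2 dpw keratinocyte-like cells hold 43.2% and fibroblast-like cells 9.81% (99 UMIs). The unnamed cluster 13 alone holds more than the latter (122 UMIs).

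Outside macrophage-like cells, which held 51.9% [51.2 to 52.7] of all il1b UMIs, the main il1b source was neutrophil-like cells with 24.9% [24.2 to 25.5]. Neutrophil-like cells were 0.931, 5.95, 2.38 and 0.842% of the cells in the 4 stages but held 35.1, 23.1, 25.8 and 26.9% of il1b. Keratinocyte-like cells held 8.57%, with 18.1% at 6 dpw, when the share of macrophage-like cells was 20%. For tnfb the shares over all libraries were 56.2% in macrophage-like, 17.7% in neutrophil-like, 6.48% in T or NK cell-like and 6.45% in keratinocyte-like cells. tnfa was the most restricted of the 3 genes, with 79.9% in macrophage-like cells and 5.27% in the small cluster 31. il11b lay elsewhere: 45.4% [44.1 to 46.7] of its UMIs were in keratinocyte-like cells, 19.3% in cluster 13, which was led by sterol synthesis genes (ebp, msmo1, cyp51) and had 2 keratinocyte markers, and 14.9% in fibroblast-like cells. The keratinocyte-like share depended on how cells were named, being 76.4% with each cell named by its own markers and 72% with clusters named by 2 markers. The shares of il11a were 35.4% in fibroblast-like, 23.1% in keratinocyte-like and 11.5% in mural-like cells, which made up 1.08% of all cells. The stacked plot of UMI shares shows these 2 groups of genes side by side.

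Per UMI, il1b was highest in neutrophil-like cells at every stage. Their levels were 2480, 1629, 1323 and 1394 CPM in the 4 stages (590, 2831, 719 and 252 UMIs in 54, 461, 174 and 70 cells), and the wound levels were 0.657 [0.601 to 0.719], 0.533 [0.478 to 0.596] and 0.562 [0.483 to 0.653] of that of unwounded skin. Neutrophil-like cells of unwounded skin thus had the highest il1b level of any class and library. Macrophage-like cells, in contrast, had 271, 452, 219 and 82.4 CPM, with 6 dpw at 0.304 [0.257 to 0.359] of the unwounded level. Neutrophil-like cells therefore exceeded macrophage-like cells per UMI by 9.15-fold [8.16 to 10.3] in unwounded skin, 3.60-fold [3.44 to 3.76] at 2 dpw, 6.04-fold [5.51 to 6.61] at 4 dpw and 16.9-fold [13.9 to 20.5] at 6 dpw. These ratios do not compare il1b per cell, as macrophage-like cells were deeper (medians 9702, 11375, 8813.5 and 6697 UMIs). Macrophage-like cells held 623, 6997, 1368 and 187 il1b UMIs in 231, 1331, 690 and 309 cells. With every cell thinned to 500 UMIs, 51.9, 38.2, 32.8 and 32.9% of neutrophil-like cells (median depths 3796.5, 3508, 2929.5 and 2557 UMIs) held an il1b UMI, against 0.559, 0.891, 0.737 and 0% of red blood cell-like cells (medians 972, 818, 777 and 852). Unthinned, 41 of 54, 330 of 461, 110 of 174 and 44 of 70 neutrophil-like cells had il1b. The direction within neutrophil-like cells was the same with trimmed-mean (TMM) scaling, which moved every ratio of this class to unwounded skin by -0.44 on the log2 scale at 2 dpw and gave 0.486 for il1b.

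**Figure D2:**
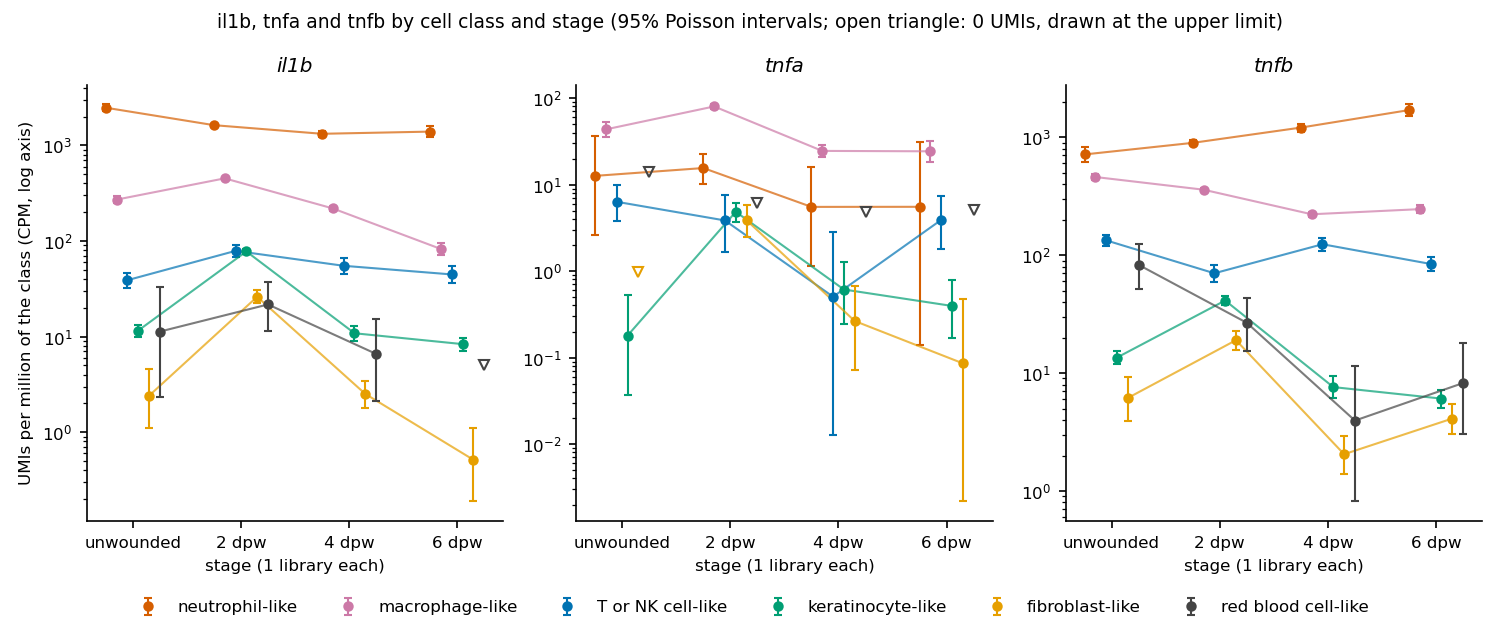
CPM of il1b, tnfa and tnfb (vertical axis, log scale) by stage (horizontal axis, unwounded to 6 dpw) in macrophage-like, neutrophil-like, T or NK cell-like, keratinocyte-like, fibroblast-like and red blood cell-like cells; bars are 95% counting intervals and open triangles mark the upper limit where no UMI was found. Neutrophil-like cells lie above the other classes shown for il1b and tnfb at every stage, and macrophage-like cells for tnfa (80.0 CPM at 2 dpw).

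The order of the named classes in il1b level at 2 dpw was neutrophil-like, macrophage-like (452 CPM), glial-like (131 CPM [86.6 to 191], 27 UMIs), T or NK cell-like (78.9 CPM [67.3 to 91.9]), keratinocyte-like (77.8 CPM [73.1 to 82.7]), fibroblast-like (26.1 CPM), endothelial-like (22.8 CPM) and red blood cell-like cells (21.7 CPM). The intervals of T or NK cell-like and keratinocyte-like cells overlapped, and so did those of the last 3. The mucous, proliferating, mural and pigment cell classes had under 10 CPM, and thrombocyte-like cells had 1 UMI. The glial-like il1b lay in 5 cells with 6835 CPM of macrophage markers, against 140 CPM in the 121 without il1b, and the summed markers of the class were at 1484 CPM at 2 dpw and 240 CPM in unwounded skin. Among the unnamed clusters, cluster 35, led by il13, osm and il4, had 337, 239, 249 and 141 CPM of il1b in 25, 37, 50 and 55 cells, and cluster 24, led by spink2, had 326, 134, 259 and 234 CPM. Cluster 24 had 2 mucous cell markers and 1 each of the eosinophil, mural cell and neutrophil lists. Naming needed 3 markers and only 2 of 4 eosinophil markers were found, so no cluster could be named eosinophil-like whatever its cells were. The leading genes of cluster 24 also included si:dkeyp-75b4.10, a symbol close to that of a listed eosinophil marker. Whether both symbols mean the same gene was not tested. Neutrophil markers moved with il1b in cluster 24, with 2446 CPM in cells with il1b and 612 CPM in those without at 2 dpw, and 1380 and 575 CPM at 4 dpw. In cluster 35 they were at 67.0 and 59.1 CPM at 2 dpw and at 69 and 118 CPM at 4 dpw, while macrophage markers were at 335 and 118 CPM at 2 dpw.

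Keratinocyte-like cells had much more il1b at 2 dpw than at any other stage. Their levels were 11.6, 77.8, 10.8 and 8.35 CPM (193, 1028, 124 and 169 UMIs in 66, 241, 72 and 70 cells), so that 2 dpw was 6.73-fold [5.76 to 7.88] unwounded skin, 4 dpw did not differ beyond counting error (0.937 [0.742 to 1.18]) and 6 dpw was at 0.721 [0.583 to 0.892]. In unwounded skin the keratinocyte-like level was 1.03 times [0.346 to 5.01] that of red blood cell-like cells, which had only 3 il1b UMIs. At 2 dpw it was 3.59 times [2.09 to 6.76] the red blood cell-like level. Red blood cell-like cells were much shallower, so these ratios per UMI do not compare free RNA per cell. After thinning, 0.601, 3.04, 0.302 and 0.673% of keratinocyte-like cells had il1b, and without thinning 4.41, 22.2, 7.24 and 3.92%, at medians of 11250, 9507, 9922 and 10826 UMIs. The 2 dpw ratio was not shared by all keratinocyte-like clusters. It was 7.76 [6.04 to 10.1] in cluster 12 (krtt1c19e and krt17), which held 447 of the 1028 UMIs at 156 CPM against 20.2 CPM in unwounded skin, 7.40 in cluster 10 (76 UMIs at 2 dpw), 15.5 in cluster 20 (67 UMIs), and 2.52 in cluster 4 (cldn1 and ccl27b). The highest 2 dpw levels were 245 CPM in cluster 21 (90 UMIs in 14 cells; 13.5-fold [6.56 to 32.2]) and 210 CPM in cluster 32 (56 UMIs in 11 of 33 cells; 17.9-fold [4.72 to 151]), whereas cluster 25 had 11.5 CPM at 2 dpw against 14.7 CPM in unwounded skin (0.783 [0.312 to 1.73]). Cluster 13, the sterol-gene cluster, had 39.6 CPM at 2 dpw and 1.49 CPM in unwounded skin, a ratio of 26.6 [12.7 to 64.3].

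Macrophage transcripts moved with il1b in these cells. At 2 dpw the summed macrophage markers were 726 CPM in keratinocyte-like cells with il1b (median depth 20403 UMIs) and 338 CPM in those without (7702 UMIs), while in unwounded skin the values were 397 and 380 CPM; macrophage-like cells of the 2 dpw library had 14395 CPM. When all cells outside macrophage-like clusters that were rich in macrophage markers were left out (274 of the keratinocyte-like cells), the 2 dpw ratio was 6.60, nearly as large as with them. Cells with fewer macrophage markers stayed in, so the part of smaller amounts of macrophage RNA was not tested. Neutrophil markers were at 4018 CPM with and 3772 CPM without il1b at 2 dpw. That list was at 3849 CPM in the class as a whole, so it cannot show neutrophil RNA there. Naming each cell by its own markers gave 4.97. Keratinocyte-like cells with il11b at 2 dpw also held il1b more often (77 of 190, 40.5%) than those without il11b (18.3%), but they were deeper as well (medians of 20278 and 7307 UMIs), and after thinning 1 of 13 had both.

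T or NK cell-like cells had il1b at 38.9, 78.9, 55.1 and 44.7 CPM in the 4 stages, from 117, 164, 109 and 103 UMIs that lay in only 34, 40, 24 and 29 cells. The 2 dpw ratio was 2.03 [1.59 to 2.59], and that of 6 dpw was 1.15. Single cells carried much of this, with 19, 28, 46 and 17 UMIs in the highest cell of each stage. Macrophage markers were at 239, 324, 300.1 and 307 CPM in T or NK cell-like cells with il1b over the 4 stages, and at 242, 291, 247 and 199.6 CPM in those without. In fibroblast-like cells il1b had 9, 162, 38 and 6 UMIs, that is 2.41, 26.1, 2.51 and 0.514 CPM, and the 2 dpw ratio was 10.8 [5.57 to 24.1]. The 2 dpw level was nonetheless only 1.2 times [0.684 to 2.31] that of red blood cell-like cells, 38 of the 162 UMIs were in 1 cell, and the 29 fibroblast-like cells with il1b had 3741 CPM of macrophage markers and 944 CPM of neutrophil markers, against 386 and 148 CPM in those without. Summed macrophage markers of all fibroblast-like cells were at 111, 623, 267 and 146 CPM in the 4 stages, and those of red blood cell-like cells at 90.3, 629, 183 and 156 CPM. Without marker-rich cells the ratio was 6.97, and with cells named by their own markers 4.14. Per UMI, the fibroblast-like il1b level at 2 dpw was thus not above that of red blood cell-like cells beyond counting error. The latter were shallower, with a median of 818 UMIs, against 14954 and 10227 UMIs in fibroblast-like cells with and without il1b. How much of this il1b was free RNA was not tested.

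**Figure D3:**
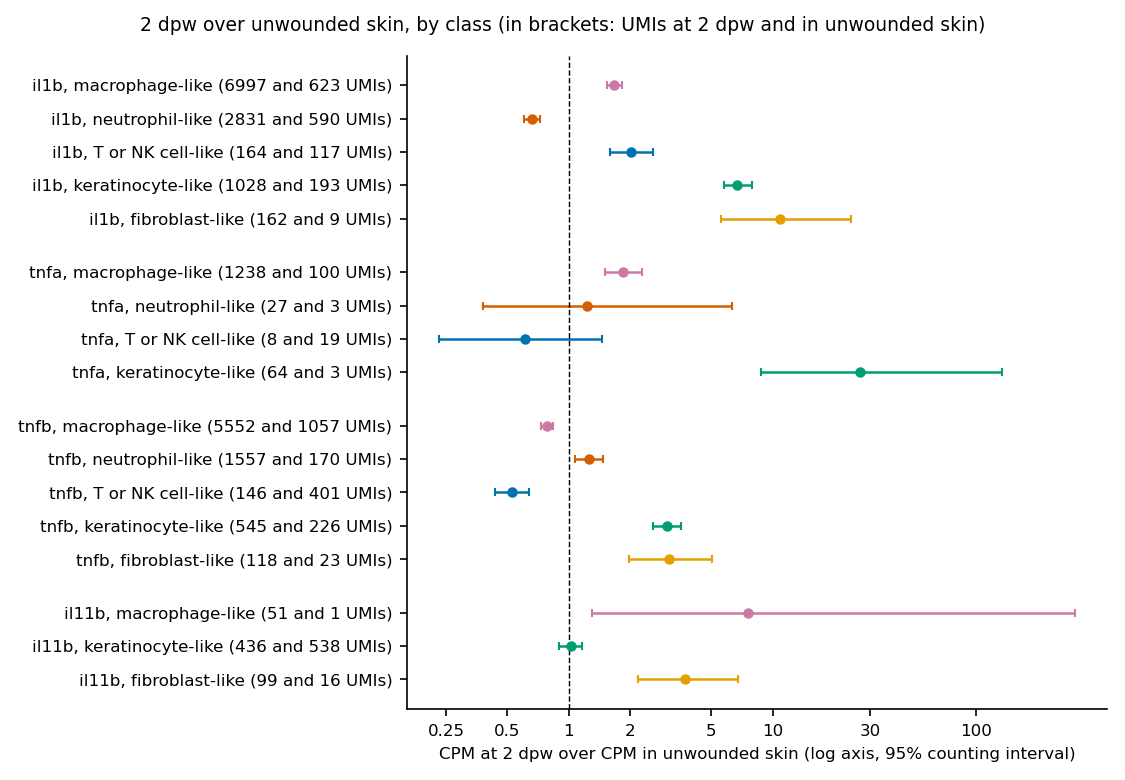
Ratio of the 2 dpw level to the unwounded level (horizontal axis, log scale, 1 marks no difference) of il1b, tnfa, tnfb and il11b in each class with at least 20 UMIs in the 2 libraries and at least 1 in unwounded skin; bars are 95% counting intervals. For il1b keratinocyte-like and fibroblast-like cells lie right of macrophage-like cells, and neutrophil-like cells lie left of 1 (0.657); for tnfb T or NK cell-like cells lie left of 1 (0.526).

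tnfb, the second tumour necrosis factor gene, was led per UMI by neutrophil-like cells as well, but with the opposite course. They had 715, 896, 1207 and 1699 CPM in the 4 stages (170, 1557, 656 and 307 UMIs), ratios of 1.253 [1.07 to 1.48], 1.69 [1.42 to 2.01] and 2.38 [1.96 to 2.88] to unwounded skin. The 2 dpw direction depended on the scaling, since the ratio was 0.927 with TMM and 0.917 with cells named by their own markers, while the 6 dpw ratio was 1.92 and 1.80 under these settings and 1.44 without cells rich in macrophage markers. Macrophage markers summed to 996, 1733, 3099 and 1787 CPM in neutrophil-like cells, and their part in the tnfb course was not tested beyond this. Macrophage-like cells had 460, 359, 222 and 246 CPM, that is 0.781 [0.731 to 0.835], 0.483 and 0.534 of the unwounded level. The ratio of neutrophil-like to macrophage-like cells was thus 1.55 in unwounded skin and 2.5, 5.43 and 6.92 at 2, 4 and 6 dpw, the last being 3.58 without marker-rich cells. Thinned to 500 UMIs, 22.2, 24.7, 24.7 and 31.4% of neutrophil-like cells had tnfb, against 1.68, 0.445, 0.246 and 0.208% of red blood cell-like cells. Macrophage-like cells were deeper than neutrophil-like cells (medians 9702, 11375, 8813.5 and 6697 against 3796.5, 3508, 2929.5 and 2557 UMIs). The ratios of these 2 classes therefore do not compare tnfb per cell. Without thinning, 152 of 231, 982 of 1331, 347 of 690 and 134 of 309 macrophage-like cells had tnfb. For neutrophil-like cells it was 23 of 54, 269 of 461, 102 of 174 and 33 of 70.

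In T or NK cell-like cells tnfb had 133, 70.2, 124 and 84.2 CPM (401, 146, 245 and 194 UMIs in 86, 59, 47 and 57 cells). The 2 dpw level was 0.526 [0.432 to 0.637] and the 6 dpw level 0.631 [0.529 to 0.751] of that of unwounded skin, while 4 dpw was at 0.927 [0.788 to 1.09]. With each cell named by its own markers the 2 dpw ratio was 1.07, so this direction rests on the clustering. The 3 T or NK cell-like clusters differed: cluster 2 had 253, 90.9, 284 and 105 CPM, with 93 of its 185 UMIs at 4 dpw in 1 cell, cluster 7 (ccr10) had 114, 86.8, 26.0 and 130 CPM, and cluster 14 had 7.4, 26.9, 74.7 and 6.0 CPM. il1b and tnfb were seldom found in the same cell of this class: of the cells with tnfb, 2 of 86, 2 of 59, 2 of 47 and 2 of 57 also had il1b, and il1b was in 34 of 1173, 40 of 826, 24 of 743 and 29 of 1062 cells of the class as a whole.

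In neutrophil-like cells the same 2 genes were found together. Of those with tnfb, 23 of 23, 217 of 269 (80.7%), 73 of 102 (71.6%) and 26 of 33 (78.8%) also had il1b in the 4 stages, against 58.1, 58.9, 51.4 and 48.6% of those without tnfb. Deeper cells show more of both genes: after thinning to 500 UMIs the shares were 75, 53.5, 32.6 and 50.0% with tnfb and 45.2, 33.1, 32.8 and 25% without, so that the difference was gone at 4 dpw.

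Keratinocyte-like cells had tnfb at 13.5, 41.3, 7.61 and 6.07 CPM in the 4 stages (226, 545, 87 and 123 UMIs), with ratios of 3.04 [2.60 to 3.57], 0.562 and 0.448 to unwounded skin. Red blood cell-like cells had 82.8, 26.7, 3.96 and 8.23 CPM. Per UMI, keratinocyte-like cells thus lay below them in unwounded skin (0.164 [0.105 to 0.266]). They did not differ from them beyond counting error at 2 dpw (1.54 [0.943 to 2.72]), 4 dpw (1.92 [0.636 to 9.50]) or 6 dpw (0.738 [0.329 to 2.05]). As red blood cell-like cells were much shallower, these ratios do not compare free RNA per cell. Cluster 12, which also led il1b in UMIs, was at 93.4 CPM at 2 dpw against 17.1 CPM in unwounded skin (5.45-fold), and the small cluster 32 was at 221 against 52.9 CPM (4.18-fold). At 2 dpw keratinocyte-like cells with tnfb had 1151 CPM of macrophage markers and those without 313 CPM; leaving out marker-rich cells gave a ratio of 3.37. Of 135 such cells with tnfb, 66 had il1b (48.9%, against 18.4% without tnfb), but after thinning only 1 of 20. Fibroblast-like cells had 6.15, 19, 2.05 and 4.12 CPM of tnfb, a 2 dpw ratio of 3.09 [1.96 to 5.06]. Their 2 dpw level was 0.712 [0.421 to 1.29] of that of red blood cell-like cells, and macrophage markers were at 2348 CPM in fibroblast-like cells with tnfb and 396 CPM in those without. Outside the named classes, tnfb was at 175, 365, 121 and 310 CPM in cluster 31 and at 144, 205, 71.2 and 365 CPM in cluster 36 (xcr1a.1 and spic).

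tnfa was largely a gene of macrophage-like cells, which had 43.5, 80.0, 24.5 and 24.2 CPM (100, 1238, 153 and 55 UMIs, with 26 of the 100 in 1 cell). Both clusters of this class were highest at 2 dpw, with 35.1, 88.3, 22.9 and 29.2 CPM in cluster 0 and 51.4, 60.4, 28.6 and 16.7 CPM in cluster 15. The 2 dpw ratio to unwounded skin was 2.52 [1.83 to 3.56] in cluster 0. In cluster 15 it was 1.18 [0.889 to 1.58], not a difference beyond counting error. Cluster 31, led by an immunoglobulin light chain gene and flt3 and with 3 macrophage and 2 B cell markers, had 80.0, 55.5, 83.2 and 132 CPM (22, 19, 20 and 41 UMIs). It was the only unit of the clustering above macrophage-like cells in tnfa over all libraries (87.4 [71.2 to 106] and 58.8 [55.9 to 61.8] CPM), and held 33.6% of tnfa at 6 dpw; its 6 dpw ratio to unwounded skin was 1.65 [0.963 to 2.92].

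The other named classes had little tnfa. Neutrophil-like cells had 3, 27, 3 and 1 UMIs, and their 2 dpw level of 15.5 CPM was 0.194 [0.127 to 0.284] of that of macrophage-like cells. T or NK cell-like cells had 19, 8, 1 and 9 UMIs. Keratinocyte-like cells had 3, 64, 7 and 8 UMIs in 2, 19, 4 and 6 cells, a 2 dpw ratio of 26.9 [8.81 to 134] in which 24 of the 64 UMIs came from 1 cell. Macrophage markers were at 1137 CPM in those with tnfa at 2 dpw and 436 CPM in those without. The ratio was 15.9 without marker-rich cells and 2.99 with cells named by their own markers. In fibroblast-like cells 17 of the 24 tnfa UMIs at 2 dpw were in 1 cell and unwounded skin had none, so that 2 dpw was at least 4.82-fold higher, counting 3 UMIs in the unwounded class.

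il6 was detected in 25 of 29185 cells, and 83.3% [68.6 to 93.0] of its 42 UMIs lay in macrophage-like cells. These had 9, 22, 4 and 0 UMIs in 3, 14, 2 and 0 cells, and 7 of the 9 unwounded UMIs came from 1 cell. The 2 dpw ratio of 0.363 [0.161 to 0.896] became 1.253 when the highest cell of each library was left out, so no direction can be given. Neutrophil-like cells had 2 il6 UMIs at 2 dpw, and keratinocyte-like, fibroblast-like, T or NK cell-like and red blood cell-like cells had none in any library. The 0 UMIs of 56867519 at 6 dpw do not show that il6 was absent. The 14 macrophage-like cells with il6 at 2 dpw mostly held the other cytokines too: 13 had il1b (92.9%, against 59.4% of those without il6) and 9 had tnfa (64.3%, against 23.5%). Depth was not matched in these shares. Thinning left 1 of these cells with il6, too few for a comparison.

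il11b, 1 of the 2 zebrafish copies of the interleukin 11 gene, was mainly found in keratinocyte-like cells and was most abundant at 6 dpw. Keratinocyte-like cells had 32.3, 33.0, 37.4 and 67.9 CPM in the 4 stages (538, 436, 428 and 1374 UMIs in 209, 190, 210 and 487 cells). Set against unwounded skin this was 1.02-fold [0.90 to 1.16] at 2 dpw, 1.16-fold [1.02 to 1.32] at 4 dpw and 2.1-fold [1.90 to 2.33] at 6 dpw; with TMM scaling the 2 dpw ratio was 0.899. Thinned, 1.60, 1.2, 1.81 and 2.75% of these cells had il11b, and unthinned 14.0, 17.5, 21.1 and 27.3%. Of the thinned red blood cell-like cells 0.559, 0.223, 0 and 0.416% had it. The clusters did not share this course. Cluster 10 had 24.0, 45.1, 50.5 and 92.4 CPM, 3.86-fold [3.17 to 4.73] at 6 dpw, whereas cluster 12 had 78.7, 49.0, 48.5 and 95.8 CPM and was at 0.622 of unwounded skin at 2 dpw and 1.22 at 6 dpw. Cluster 12 was thus among the highest for il1b and the lower of these 2 for the il11b ratio at 2 dpw. In cluster 13 il11b was at 55.2, 75.5, 71.5 and 126 CPM (297, 122, 109 and 649 UMIs), a 6 dpw ratio of 2.29 [1.99 to 2.64]. Macrophage markers were at 479, 400, 399 and 568 CPM in keratinocyte-like cells with il11b over the 4 stages, and at 358, 481, 365.5 and 493 CPM in those without. They were thus higher with il11b at every stage but 2 dpw.

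Fibroblast-like cells had il11b at 4.28, 16.0, 30.3 and 29.1 CPM (16, 99, 458 and 339 UMIs in 6, 45, 177 and 126 cells). The wound levels were 3.73-fold [2.19 to 6.77], 7.08-fold [4.31 to 12.5] and 6.79-fold [4.12 to 12] the unwounded level. The unwounded level was 1.14 times [0.177 to 47.7] that of red blood cell-like cells in the same library. As the latter was 3.76 CPM from 1 UMI, it cannot place the fibroblast-like level. As 9 of the 16 unwounded UMIs came from 1 cell, the 4 dpw ratio was 15.6 without the highest cell of each library. At 4 dpw macrophage markers were at 371 CPM in fibroblast-like cells with il11b (median depth 16901 UMIs) and 240 CPM in those without (9734 UMIs). Cluster 1 (ucmaa, matn4 and thbs4b) carried most of the difference, with 1.8, 30.4, 39.1 and 43.0 CPM from 2, 70, 405 and 249 UMIs and a 4 dpw ratio of 21.6 [5.94 to 179]. Cluster 5 had 2.4, 7.4, 11 and 13.1 CPM and cluster 19 had 11.7, 9.2, 8.5 and 24.6 CPM. Cluster 1 made up 25.1, 29.0, 56.5 and 42% of the fibroblast-like cells. Relative to keratinocyte-like cells, the fibroblast-like il11b level was 0.133, 0.483, 0.810 and 0.428 in the 4 stages, closest at 4 dpw.

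**Figure D4:**
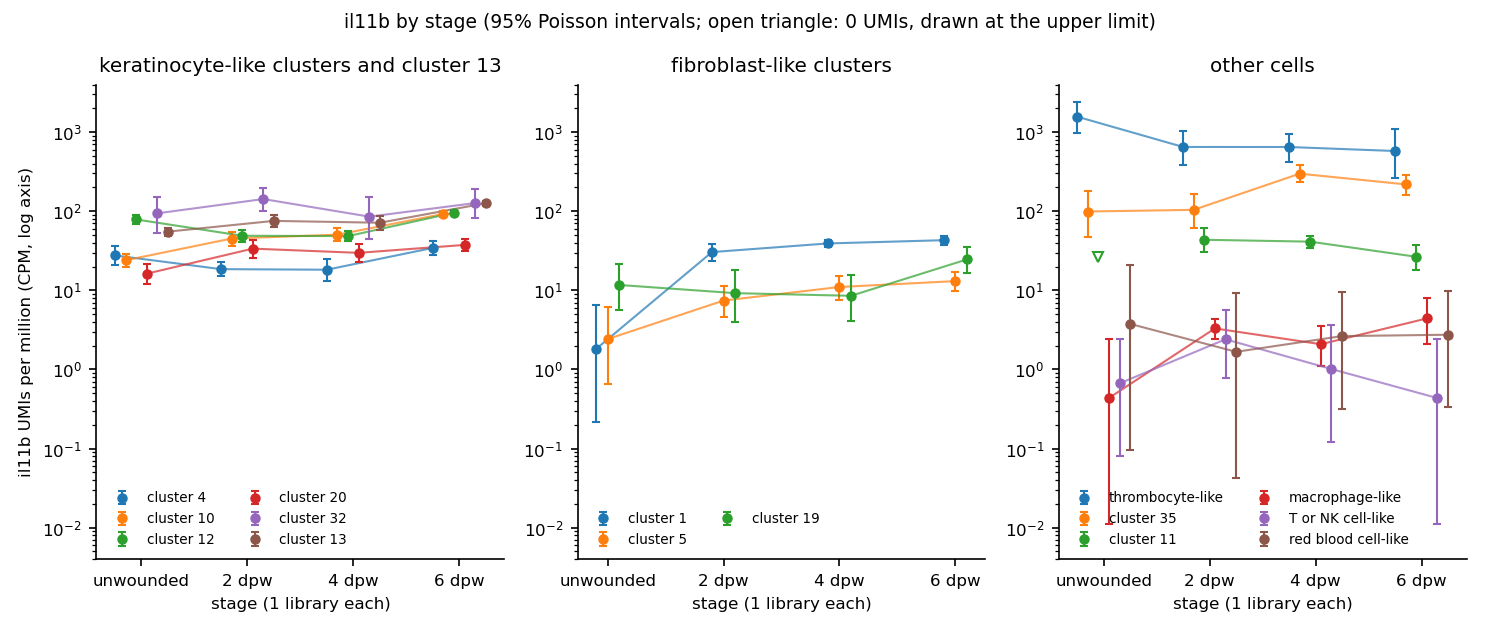
il11b CPM (vertical axis, log scale) by stage (horizontal axis, unwounded to 6 dpw) in keratinocyte-like clusters and cluster 13, in fibroblast-like clusters and in other cells; bars are 95% counting intervals and the open triangle is the upper limit where no UMI was found. Each set against its own other stages, cluster 10 and cluster 13 have their highest level at 6 dpw (92.4 and 126 CPM). Cluster 12 has its lowest levels at 2 and 4 dpw (49.0 and 48.5 CPM), and the fibroblast-like cluster 1 in unwounded skin (1.8 CPM).

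Per UMI, the highest il11b level of all was in thrombocyte-like cells, a class of 107 shallow cells (medians 928, 971, 731 and 686.5 UMIs). They had 22, 18, 25 and 9 UMIs in 13, 25, 49 and 20 cells, that is 1568, 649, 648 and 577 CPM, 48.6 times the keratinocyte-like level in unwounded skin, where 14 of the 22 UMIs were in 1 cell, and 17.3 times [11.1 to 25.9] at 4 dpw. Requiring at least 1000 UMIs per cell left a 4 dpw ratio of 3.22, so the size of this difference rests on the shallow cells. Cluster 35 followed with 99.1, 104, 298 and 219 CPM (10, 17, 67 and 48 UMIs; 3.01 [1.54 to 6.56] at 4 dpw). Then came cluster 13 (86.2 CPM over all libraries [81.3 to 91.2]), cluster 22 (45.4 [38.9 to 52.6]) and keratinocyte-like cells (45.1 [43.4 to 46.8]), whose intervals overlapped, cluster 6 (38.0 [31.2 to 46.0]), cluster 11 (37.3 [32.3 to 42.8]) and fibroblast-like cells (24.8 [23.2 to 26.5]). Cluster 11, with muscle markers and led by tagln and col4a2, had no il11b UMI in unwounded skin and 35, 137 and 32 UMIs at 2, 4 and 6 dpw, so that 2 dpw was at least 2.01-fold higher. Leukocytes had little: macrophage-like cells had 1, 51, 13 and 10 UMIs of il11b (0.435, 3.30, 2.08 and 4.41 CPM, with a 2 dpw ratio of 7.58 [1.30 to 305]), neutrophil-like cells 0, 11, 0 and 1, and T or NK cell-like cells 2, 5, 2 and 1. Red blood cell-like il11b rested on 1 or 2 UMIs per library, too few to place these levels against it.

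il11a, the other copy, gave 130 UMIs in 119 cells. Mural-like cells, the contractile cells around small vessels, had the highest level of the named classes, at 17, 9.69 and 16.5 CPM from 5, 6 and 4 UMIs at 2, 4 and 6 dpw; unwounded skin had none in 14 such cells, too few for a fold. Fibroblast-like cells had 7, 2, 25 and 12 UMIs, that is 1.87, 0.322, 1.65 and 1.03 CPM, and were lower at 2 dpw than in unwounded skin (0.172 [0.0174 to 0.904]). Keratinocyte-like cells had 4, 17, 5 and 4 UMIs, with 13 of the 17 in cluster 4, and were 5.37-fold higher [1.75 to 21.9] at 2 dpw. The fibroblast-like level was 3.78 times [1.42 to 12.7] the keratinocyte-like level at 4 dpw. No il11a UMI was found in T or NK cell-like, neutrophil-like or red blood cell-like cells. Of the 34 cells with il11a at 2 dpw, 7 also had il11b (20.6%, against 5.62% of the cells without il11a), over all classes and depths together; at 6 dpw the shares were 9.68% and 11.1%, and thinning left 1 cell with il11a, too few for a comparison.

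Set against all genes with at least 20 UMIs in the 2 libraries compared, members 2-fold or more higher at 2 dpw than in unwounded skin were 4 of the 5 countable in keratinocyte-like cells (il1b, tnfa, tnfb and il11a; 15.1% of all genes) and 4 of 4 in fibroblast-like cells (il1b, tnfa, tnfb and il11b; 12.4% of all genes). In T or NK cell-like cells it was 1 of 3 (il1b; 3.19% of all genes), in neutrophil-like cells 0 of 3 (21.7%) and in macrophage-like cells 1 of 5 (il11b; 9.43%). Some members were countable only through their 2 dpw UMIs. These included fibroblast-like tnfa (24 UMIs at 2 dpw, none in unwounded skin) and macrophage-like il11b (51 and 1 UMIs). Keratinocyte-like tnfa (64 and 3 UMIs) and il11a (17 and 4 UMIs) were further cases. Fibroblast-like il1b and tnfb and keratinocyte-like tnfb at 2 dpw were not above the red blood cell-like level beyond counting error. The counts are therefore a description only. No member was 2-fold lower in keratinocyte-like, fibroblast-like, T or NK cell-like or neutrophil-like cells at 2 dpw, where 7.26, 11.9, 5.13 and 5.2% of all genes were, and 1 of 5 was in macrophage-like cells (il6; 10.2%), which rests on 1 cell of unwounded skin. In fibroblast-like cells at 4 dpw 1 of 4 members was higher (il11b; 9.83% of all genes) and 1 of 4 lower (tnfb; 18.7%).

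Of the genes that process or receive these cytokines, 83 of 99 listed symbols were found. Without the members, 11 of the 59 countable listed genes were 2-fold higher and 2 were lower in keratinocyte-like cells at 2 dpw, where 15.1% of all genes were higher and 7.26% lower, so that the list as a whole was near the background. The higher genes included 6 of 9 inflammatory products (cxcl8a, mmp9, csf3a, csf3b, il13 and saa). The lists were chosen with earlier results of these data known, so this count is a description only. For the genes in this paragraph, red blood cell-like levels and macrophage markers were not compared. RNA from other cells was thus not tested, and il13 was also a leading gene of cluster 35. mmp9, a matrix metalloproteinase, had 5.22, 119, 31.3 and 7.95 CPM (22.9-fold [18.4 to 28.7] at 2 dpw). csf3b, a granulocyte colony-stimulating factor, had 2.40, 12.6, 0.962 and 4.05 CPM, and socs3b, a feedback inhibitor of STAT3 signalling, 4.50, 27.3, 18.0 and 13.8 CPM (6.08-fold [4.73 to 7.90]). The neutrophil-attracting chemokine gene cxcl8b.1 went the other way, with 475, 190, 530 and 692 CPM (0.401 [0.383 to 0.419]), although the related cxcl8a had 45.6, 99.5, 24.7 and 32.4 CPM. clcf1, a ligand of the interleukin 6 family, was lower too, with 116, 47.2, 33.8 and 50.8 CPM.

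Genes for processing and release of interleukin 1 lay partly in other cells than il1b itself. pycard, the inflammasome adaptor, had 188, 238, 301 and 175 CPM in keratinocyte-like cells, against 63.5 CPM in macrophage-like cells over all libraries. caspb, an inflammatory caspase gene, had 83.7, 99.3, 171 and 98.4 CPM in keratinocyte-like cells (2.04-fold [1.90 to 2.18] at 4 dpw). gsdmea, a pore-forming gasdermin, was 5.14-fold higher [2.68 to 11.3] in neutrophil-like cells at 2 dpw, with 37.8, 195, 84.6 and 66.4 CPM in the 4 stages. In macrophage-like cells gsdmea had 44.4, 81.5, 54.0 and 27.3 CPM.

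Of the 2 tumour necrosis factor receptor genes, tnfrsf1a was found in tissue cells and leukocytes alike, at similar levels in all stages. It had 67.2, 74.5, 69.8 and 74.1 CPM in keratinocyte-like cells and 107, 95.4, 83.6 and 92.0 CPM in fibroblast-like cells, while neutrophil-like cells had 177 CPM over all libraries. tnfrsf1b was mainly a leukocyte gene, with 46.6, 57.9, 47.3 and 60.8 CPM in macrophage-like cells, 48.9 CPM in neutrophil-like and 6.87 CPM in keratinocyte-like cells over all libraries. birc2, an inhibitor of apoptosis downstream of these receptors, had 235, 916, 672 and 387 CPM in neutrophil-like cells (3.89-fold [2.98 to 5.17] at 2 dpw); with it, traf2b, casp8 and adam17a made 4 of 8 such genes higher in this class, whose background was 21.7%.

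Receptor genes of interleukin 6 and interleukin 11 were split between classes. il6r was at 832, 1063, 1360 and 1300 CPM in neutrophil-like cells, against 10.2 CPM in macrophage-like, 31.7 CPM in endothelial-like and 0.536 CPM in keratinocyte-like cells over all libraries. In fibroblast-like cells il6r had 1, 60, 17 and 3 UMIs, a 2 dpw ratio of 36.1 [6.24 to 1450]. Summed neutrophil markers of all fibroblast-like cells were at 254 CPM in unwounded skin and 204 CPM at 2 dpw. Neutrophil markers in fibroblast-like cells with il6r were not measured. il11ra had 28.1, 13.7, 12.4 and 14.1 CPM in fibroblast-like cells, 0.488 [0.362 to 0.655] of unwounded skin at 2 dpw, 0.443 at 4 dpw and 0.504 at 6 dpw, the stages at which il11b was higher there. Over all libraries il11ra had 40.6 CPM in endothelial-like and 4.40 CPM in keratinocyte-like cells, the main il11b class. il6st, the shared chain, hardly differed between stages, with 174, 169, 181 and 179 CPM in fibroblast-like cells and 95, 88.3, 107 and 109 CPM in keratinocyte-like cells.

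**Figure D5:**
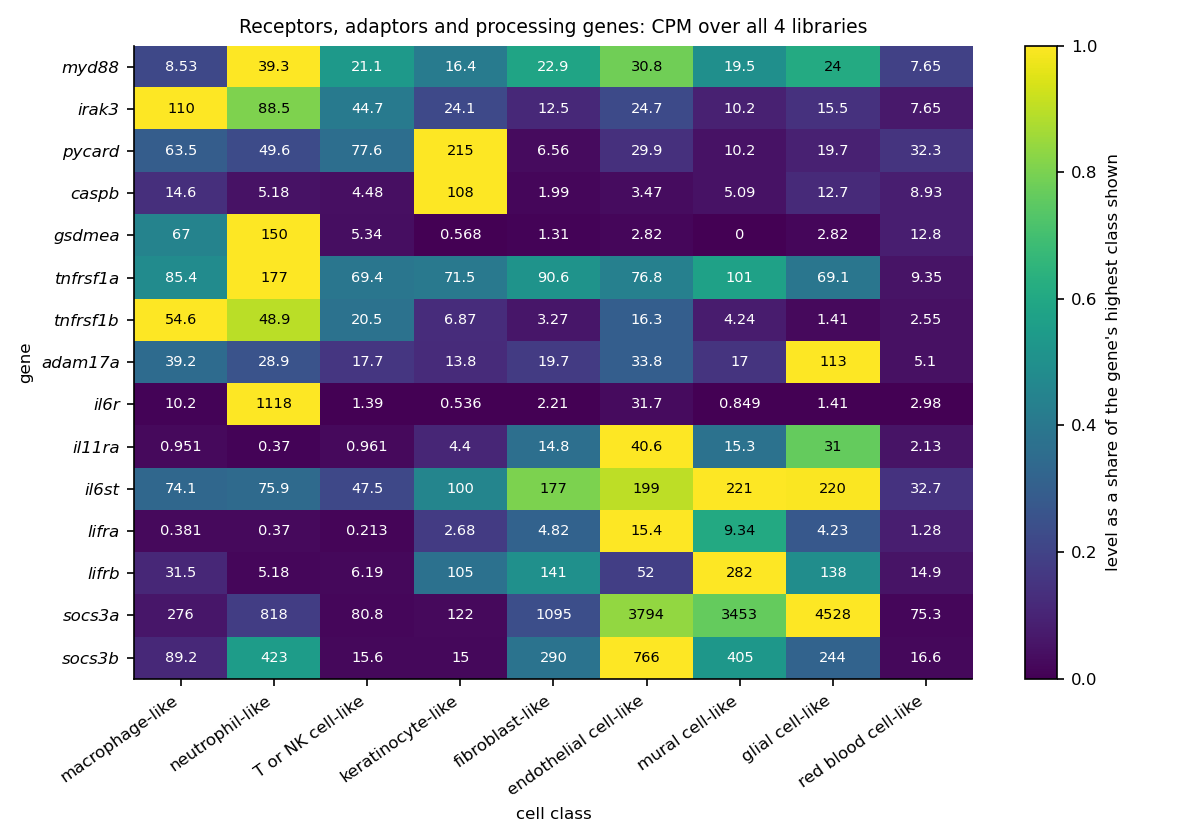
CPM over all 4 libraries of 15 processing, receptor and feedback genes (vertical axis) in 9 cell classes (horizontal axis); the colour is the level as a share of the highest class shown for that gene, and the CPM is printed in each field. il6r is concentrated in neutrophil-like cells (1118 CPM), il11ra is highest in endothelial-like cells (40.6 CPM), and il6st is above 40 CPM in all classes but red blood cell-like cells.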

How the data were processed

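Count tables deposited by the authors gave, per library, UMI counts of 25432 genes in each cell barcode (10x Genomics 3′ libraries, Cell Ranger, GRCz11; the submitters' processing notes also name Seurat 4.3.0). They are not normalised. Cells with 500 to 30000 UMIs, 200 to 4500 genes and under 25% mitochondrial UMIs were kept, as in the methods of the study. Of 7320 unwounded, 9686 (2 dpw), 8904 (4 dpw) and 10329 (6 dpw) barcodes in the files this left 5802, 7754, 7315 and 8314, with 43307637, 56645346, 53270696 and 56867519 UMIs. Libraries were integrated with SCTransform in Seurat 5.3.0 (sctransform 0.4.2, R 4.3.3) on 3500 selected genes, of which 3462 were used after leaving out the members and listed pathway genes, with 17 dimensions and resolution 1. A cluster was named, as X-like, when at least 3 markers of a class were in at least 10% of its cells and 2-fold higher than elsewhere, with no tie. It stayed unnamed where another class had more markers among its leading genes, or where it was shallow without own markers in the lead. Scrublet in scanpy 1.11.5 marked 0, 0, 1 and 0 cells, so it had not worked, and no doublets were removed. Names rebuilt in this way may differ from the classes of the study. Only 2 of the 4 eosinophil markers were found, so an eosinophil-like class could not be named.

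UMIs were summed per class and library with Python 3.11.15, numpy 2.4.6, scipy 1.17.1 and pandas 2.3.3 and given as CPM of the class total; plots used matplotlib 3.10.9. A library without UMIs was set to 3 UMIs for a bound. With 1 library per stage, no model was fitted and no p-value computed; edgeR 4.0.16 served only for TMM factors on the counts. Ratios and intervals were checked on simulated counts in which UMIs were independent, so the check does not cover UMIs grouped in single cells. Shares of cells were taken after thinning each cell to 500 UMIs, and unthinned. The members, the markers and the pathway lists were chosen with earlier results of these data known. Genes named in the text are the 6 members, the listed pathway genes (83 of 99 found, the others not analysed here) and, per member with at least 100 UMIs, the 5 genes with the highest correlation of log2(CPM + 1) over class-by-library sums of at least 50 cells, among genes with at least 200 UMIs. Leading genes of clusters are given only to identify them. Genes that share a symbol (1244) were kept apart by identifier. Alternatives changed the mitochondrial and UMI limits, the clustering, the naming, doublets, the highest cell, the scaling, thinning and the thresholds for listed genes; 2 of them, leaving out cells rich in macrophage markers and naming clusters with 2 markers, were added after seeing the data.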

Additional observations from a re-analysis of the deposited data

Results flagged for a closer look

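For il1b and tnfb the ratio to unwounded skin lay above 1 in one cell class and below 1 in another. Only 95% counting intervals clear of 1 by a set margin were flagged, among the macrophage-like, neutrophil-like, T or NK cell-like, keratinocyte-like and fibroblast-like classes. Intervals closer to 1 are left out here. One such case was il11a at 2 dpw, at 5.37 [1.75 to 21.9] in keratinocyte-like and 0.172 [0.0174 to 0.904] in fibroblast-like cells. The difference between classes was not tested, as each stage had 1 library. For il1b at 2 dpw the ratios were 10.8 in fibroblast-like, 6.73 in keratinocyte-like, 2.03 in T or NK cell-like and 1.67 in macrophage-like cells, but 0.657 in neutrophil-like cells. Per UMI, fibroblast-like il1b at 2 dpw did not differ beyond counting error from that of red blood cell-like cells, while keratinocyte-like il1b was higher.

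For tnfb at 2 dpw fibroblast-like cells were at 3.09 and keratinocyte-like cells at 3.04, against 0.526 in T or NK cell-like cells. The last was 1.07 with each cell named by its own markers, and neither the fibroblast-like nor the keratinocyte-like level differed from that of red blood cell-like cells beyond counting error. At 4 dpw neutrophil-like cells were at 1.69, while keratinocyte-like cells were at 0.562, macrophage-like cells at 0.483 and fibroblast-like cells at 0.333. At 6 dpw neutrophil-like cells were at 2.38, against 0.631 in T or NK cell-like, 0.534 in macrophage-like and 0.448 in keratinocyte-like cells. The tnfb level of neutrophil-like cells was thus the only one of these above unwounded skin at 4 and 6 dpw, and its 6 dpw ratio was 1.44 without cells rich in macrophage markers.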

How the results depend on the processing

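Of 319 values of 36 results under other settings, 237 moved by less than their counting error or threshold, 78 moved by more and 4 changed direction; 233 of 239 ratios stayed on their side of 1. With each cell named by its own markers, the 2 dpw ratio of tnfb in T or NK cell-like cells changed direction (1.07, against 0.526), as did that of tnfb in neutrophil-like cells (0.917, and 0.927 with TMM, against 1.253), and values were 4.97 for il1b in keratinocyte-like cells (6.73), 1.80 for tnfb in neutrophil-like cells at 6 dpw (2.38), 21.9 for il11b in fibroblast-like cells at 4 dpw (7.08), 3.93 for il1b in neutrophil-like over macrophage-like cells at 2 dpw (3.60), 55.7% of il1b in macrophage-like cells (51.9%) and 76.4% of il11b in keratinocyte-like cells (45.4%). Clusters named with 2 markers gave 8.45, 3.91, 55.2% and 72% for il1b in keratinocyte-like cells, the neutrophil-like over macrophage-like ratio and the same 2 shares. Without macrophage marker-rich cells il1b was 0.789 in neutrophil-like cells at 2 dpw (0.657), tnfb 1.44, the il1b class ratio 3.86 and the shares 62.0% and 47.6%. Without the highest cell of each library and class il11b in fibroblast-like cells was 15.6, the shares were 53.3% and 47.1%, and il6 in macrophage-like cells changed direction (1.253, against 0.363). Equal weight per cell gave 5.17 for il1b and 1.90 for il11b at 6 dpw in keratinocyte-like cells (2.1) and 16.8 for il11b in fibroblast-like cells. TMM gave 0.486 for il1b and 1.92 for tnfb in neutrophil-like and 2.33 for il11b in keratinocyte-like cells; totals without haemoglobin, mitochondrial and ribosomal genes gave 0.596 for il1b in neutrophil-like cells. Without the highest Scrublet scores il11b in fibroblast-like cells was 25.1 and the il1b share 53.7%; a 10% mitochondrial limit gave a share of 52.9%, and pooled clustering 54.3% and, for il11b, 50.0%. Listed genes higher in keratinocyte-like cells at 2 dpw were 18 at 1.5-fold and 6 at 3-fold (11 at 2-fold). The causes were not tested.

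TMM moved every ratio to unwounded skin by -0.44, -0.44 and -0.31 (log2; 2, 4 and 6 dpw) in neutrophil-like, -0.19, 0.01 and 0.15 in keratinocyte-like, 0.01, 0.21 and 0.17 in fibroblast-like and 0.08, 0.11 and 0.17 in T or NK cell-like cells. Without the floor, genes at 0 UMIs in a library gave no ratio. No paired analysis was possible because each stage was 1 library. Unwounded neutrophil-like (54), mural-like (14) and thrombocyte-like cells (13) were few, and il6 and il11a had too few UMIs for most comparisons.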

Other observations

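Further genes of the listed families differed between stages within single classes. In fibroblast-like cells lifrb, a receptor chain for leukaemia inhibitory factor, had 50.8, 123, 181 and 128 CPM from unwounded skin through 2 and 4 dpw to 6 dpw (2.41-fold at 2 dpw and 3.56-fold at 4 dpw), ptgs2a, a prostaglandin synthase, had 124, 157, 345 and 298 CPM (2.78-fold at 4 dpw), and cntfr, the receptor of ciliary neurotrophic factor, had 59.1, 18.2, 11.6 and 41.8 CPM (0.196 at 4 dpw). The chemokine gene cxcl8b.1 had 117, 1100, 547 and 339 CPM in the same cells, 9.36-fold at 2 dpw, although it was lower in keratinocyte-like cells. In macrophage-like cells il12bb, a subunit of interleukin 12, had 103, 19, 26.8 and 71.4 CPM (0.185 at 2 dpw), and m17, a member of the interleukin 6 family, had 2, 94, 10 and 6 UMIs (6.99 [1.88 to 58.5] at 2 dpw).

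Over 45 class-by-library sums of 12 classes, the genes whose log2(CPM + 1) followed a member most closely among 13957 were, with Pearson r and as a description only, si:ch73-343l4.8 (0.88), samsn1a, plek, nrros and spi1b (0.87 each) for il1b, stx11a (0.94), cyth4b (0.93), BX120005.2, tnfaip8l2a and fcer1g (0.90 each) for tnfb, and itgae.1 (0.89), sema4ab (0.88), il1fma (0.87), si:ch211-212k18.7 (0.86) and FO704661.1 (0.85) for tnfa. For il11b they were irx3a (0.82), ptgs2a (0.80), si:rp71-62i8.1 (0.79), gpc1a (0.79) and pcsk6 (0.78), and for il11a cntn3b (0.91), alkal1 (0.90), abcc9 (0.89), ca10b (0.89) and pde3a (0.88). The sums share their libraries and differ in depth.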
